A study of Mus musculus with 14 samples.

Results

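The TGF-β and BMP pathway was examined in bulk RNA-seq of plexiform neurofibromas (PNs), the nerve tumors of neurofibromatosis type 1. Its members were taken by symbol from the gene count table: the TGF-β, activin, BMP, and GDF ligands, their type I and type II receptors and a co-receptor, the latent TGF-β binding proteins, the SMADs, secreted antagonists, and the ID proteins. The rule found 58 genes of the 24062 in the table. Libraries were made from dorsal root ganglia (DRGs) with their nerves of *Nf1fl/fl* controls (n = 3) and from PNs of DhhCre;*Nf1fl/fl* mice (n = 11), all on a mixed background of C57BL/6, I-129, and FVBN, without drug treatment, and 9 months old by the study's Methods (a figure legend there gives 7). PNs whose volume changed by less than 5 mm3 between MRI scans at 7 and 9 months are called slow growing here (n = 5), and those that grew by more than 35 mm3 are called fast growing (n = 6). Controls and PNs both carry the floxed *Nf1* allele, so the comparison with controls is of Cre-positive tumor tissue against Cre-negative ganglion and nerve. Dhh-Cre acts in the Schwann cell lineage, and other cells of the tumor keep *Nf1*. The labels do not state that each library came from another animal, so p-values measure only the spread between these libraries.

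TGF-β, activins, BMPs, and GDFs are secreted as dimers and bind pairs of type I and type II serine/threonine kinase receptors on the cell surface. TGF-βs and activins mainly signal through SMAD2 and SMAD3 and BMPs through SMAD1, SMAD5, and SMAD9, and both branches share SMAD4. SMAD6 and SMAD7 inhibit the pathway, follistatin (*Fst*), noggin (*Nog*), and gremlin-1 (*Grem1*) bind ligands outside the cell, and the *Id* genes are classic transcriptional targets of BMP signaling. In peripheral nerve and in scar tissue TGF-β is known as a driver of matrix production by fibroblasts, and the pathway regulates Schwann cell proliferation and myelination.

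The libraries held 9596773 to 17594164 counts on genes. Markers of the labelled tissue were present: the 12 markers of Schwann cells and satellite glia summed to 4669.6 to 13895 CPM (counts scaled to library size with TMM factors) in controls and 8209 to 22008 in PNs. *Nf1* was at 229, 154 and 131 CPM in the controls and at 224 to 293 CPM in the PNs, and was called higher in PNs (log2 fold change 0.54, SE 0.16, adjusted p = 0.0215). These counts over the whole gene were not split by exon, so they do not check the deletion. Markers of other tissues moved with the groups. The 15 skeletal muscle markers summed to 4001 to 16090.3 CPM in controls, 22.9 to 3684 in slow-growing PNs, and 83.95 to 2466 in fast-growing PNs, and 13 fat markers to 4107 to 5880.1, 22.5 to 3276, and 20.7 to 292 CPM. The 10 fibroblast markers summed to 2613 to 5332 CPM in controls, 2088 to 11438 in slow-growing PNs, and 9719 to 19029 in fast-growing PNs. *Apod* and *Dcn* made up much of these sums, and *Dpt* and *Pi16* of the same list had lower means in PNs than in controls. Sensory neuron markers summed to 22.1 CPM in fast PN 4 and to 14485 CPM in slow PN 4, the lowest and the highest of all libraries, and slow PN 4 also had the lowest fibroblast and macrophage sums. In bulk tissue, fewer cells of a type and less RNA per cell cannot be told apart.

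Most members were measured in these tissues, and most receptors and SMADs ranked above most ligands. Of the 58 members, 2 (*Bmp10* and *Gdf1*) had 0 counts in every library, which allows up to 0.171 to 0.313 CPM per library (3 counts), and 9 did not pass the filter on low counts in the comparison of PNs with controls. By level per kilobase of the longest transcript, averaged over the 3 group means, the type II BMP receptor *Bmpr2* stood highest (48.05 CPM per kb), followed by the co-receptor betaglycan (*Tgfbr3*, 31.4), *Id3* (30.2), the type I BMP receptor *Bmpr1a* (23.6), *Ltbp4* (22.5), and the TGF-β type II receptor *Tgfbr2* (21.1). *Smad4*, *Smad5*, and *Smad2* followed at 18.6, 15.3, and 14.9 CPM per kb. The highest ligand was *Bmp7* (11.2), and of the TGF-βs *Tgfb3* (7.34) stood above *Tgfb1* (3.76) and *Tgfb2* (1.92). Neighbours in this order, such as *Smad5*, *Ltbp1*, and *Smad2*, lie closer together than the spread of each gene over libraries. Exons of another gene overlap the called members *Acvr1c*, *Acvr2a*, *Bmp6*, *Bmp8b*, *Bmpr1a*, *Fst*, and *Ltbp2* on the opposite strand, so reads may mix if counting ignored strand, which is not given in the sources used here. *Gdf1* shares exons with *Cers1* on the same strand, so its count of 0 is uncertain.

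**Figure D1:**
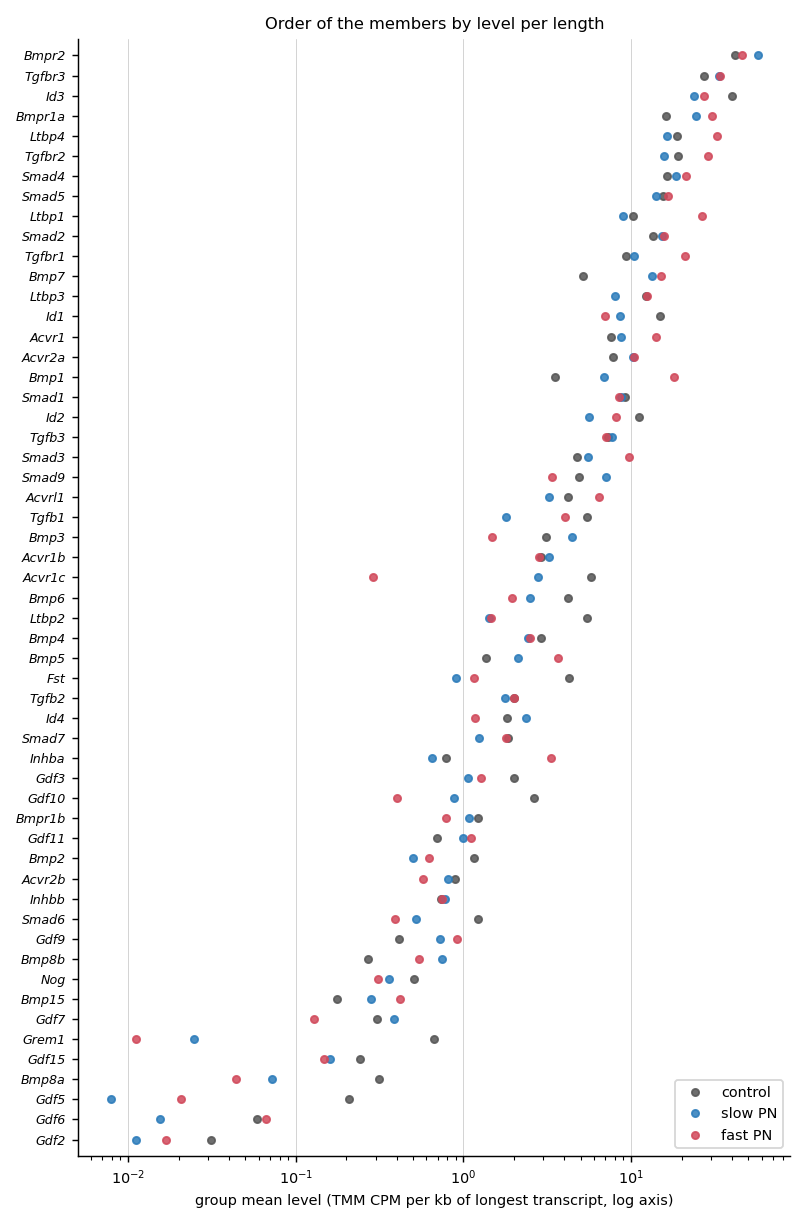
Group mean level of 55 members in CPM per kilobase of the longest transcript (log axis), ordered by the mean over the 3 groups; a group at 0 has no point, and Bmp10 and Gdf1, at 0 everywhere, are not drawn. Receptors and SMADs fill the upper part, led by Bmpr2, and most GDF ligands and secreted antagonists lie near or below 1 CPM per kb.

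PNs were first compared with controls as 1 group. Of 49 members tested, 10 were called changed (20.4%), below the 26.3% of all 16283 genes tested that were called in this comparison. The 5 members higher in PNs (10.2%, beside 12.9% of all genes) were *Bmp7*, *Bmp8b*, *Bmpr1a*, *Acvr2a*, and *Bmp1*, and the 5 lower (10.2%, beside 13.4%) were *Bmp6*, *Gdf10*, *Ltbp2*, *Fst*, and *Id3*. The median log2 fold change of the members was 0.02, beside 0.10 for all genes. The levels of 7 members did not overlap between PNs and controls (14.3%, beside 17.7%).

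Split by growth, the counts were uneven. In slow-growing PNs against controls 2 of 47 members were called (4.26%, beside 11.3% of all genes), *Fst* and *Id3*, both lower (beside 7.13%). No member was called higher there by edgeR's test (beside 4.12%), although 11 members had an unadjusted p under 0.05 (23.4%, beside 30.3%), DESeq2's Wald test called 10 (21.3%, beside 22.5% of all genes by that test), of which 4 were higher (8.51%, beside 10.2%), and the levels of 10 did not overlap (21.3%, beside 23.4%). In fast-growing PNs against the same 3 controls 17 of 49 members were called (34.7%, beside 31.4%), 8 higher (16.3%, beside 14.8%) and 9 lower (18.4%, beside 16.7%), and 18 did not overlap (36.7%, beside 32.4%). Between fast- and slow-growing PNs 1 of 48 members was called (2.08%, beside 1.27%), *Inhba*, which was higher (beside 0.802% called higher and 0.466% called lower). It was also the 1 member without overlap (beside 3.01%), and 17 members had an unadjusted p under 0.05 (35.4%, beside 20.4%). DESeq2's Wald test called 9 members between growth groups (18.8%, beside 10.3% of all genes by that test), 6 of them higher (12.5%, beside 5.6%) and 3 lower (6.25%, beside 4.69%). In 1 edgeR fit over the 3 groups *Inhba* and *Ltbp1* were called (4.08%, beside 2.6%). Of the 49 members tested, 19 were called in at least 1 of the 4 comparisons (38.8%, beside 35.2% of all genes tested). Without slow PN 4 and fast PN 4, which stood apart in the neuron markers, the counts were 12 in PNs (24.5%, beside 29.9% of all genes in that fit), 3 in slow-growing (6.38%, beside 12.5%) and 16 in fast-growing PNs (32.7%, beside 32.1%) against controls, and 2 between growth groups (4.17%, beside 3.27%). The last were *Acvr1c* and *Bmp3*, both lower in fast-growing PNs, and *Inhba* was not called there. In fast-growing PNs the calls of *Bmp6*, *Bmp7*, *Bmp1*, *Ltbp2*, *Acvr1*, *Acvr1c*, *Bmpr1a*, and *Fst* held without each single library. With scores of the skeletal muscle and fat markers as covariates edgeR called 0 members in each of the 4 comparisons. Of all genes, that fit called 2.95%, 0%, 0%, and 0%. No gene at all was called for slow- or fast-growing PNs against controls or between growth groups, so lost calls there do not mark members. In that fit 11, 4, 5, and 10 members had an unadjusted p under 0.05 (22.4%, 8.51%, 10.2%, and 20.8%, beside 19.1%, 6.23%, 7.4%, and 10.6% of all genes). The pathway genes outside the rule whose fold changes or levels are given further on were not called in that fit either (adjusted p from 0.114 to 0.819).

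**Figure D2:**
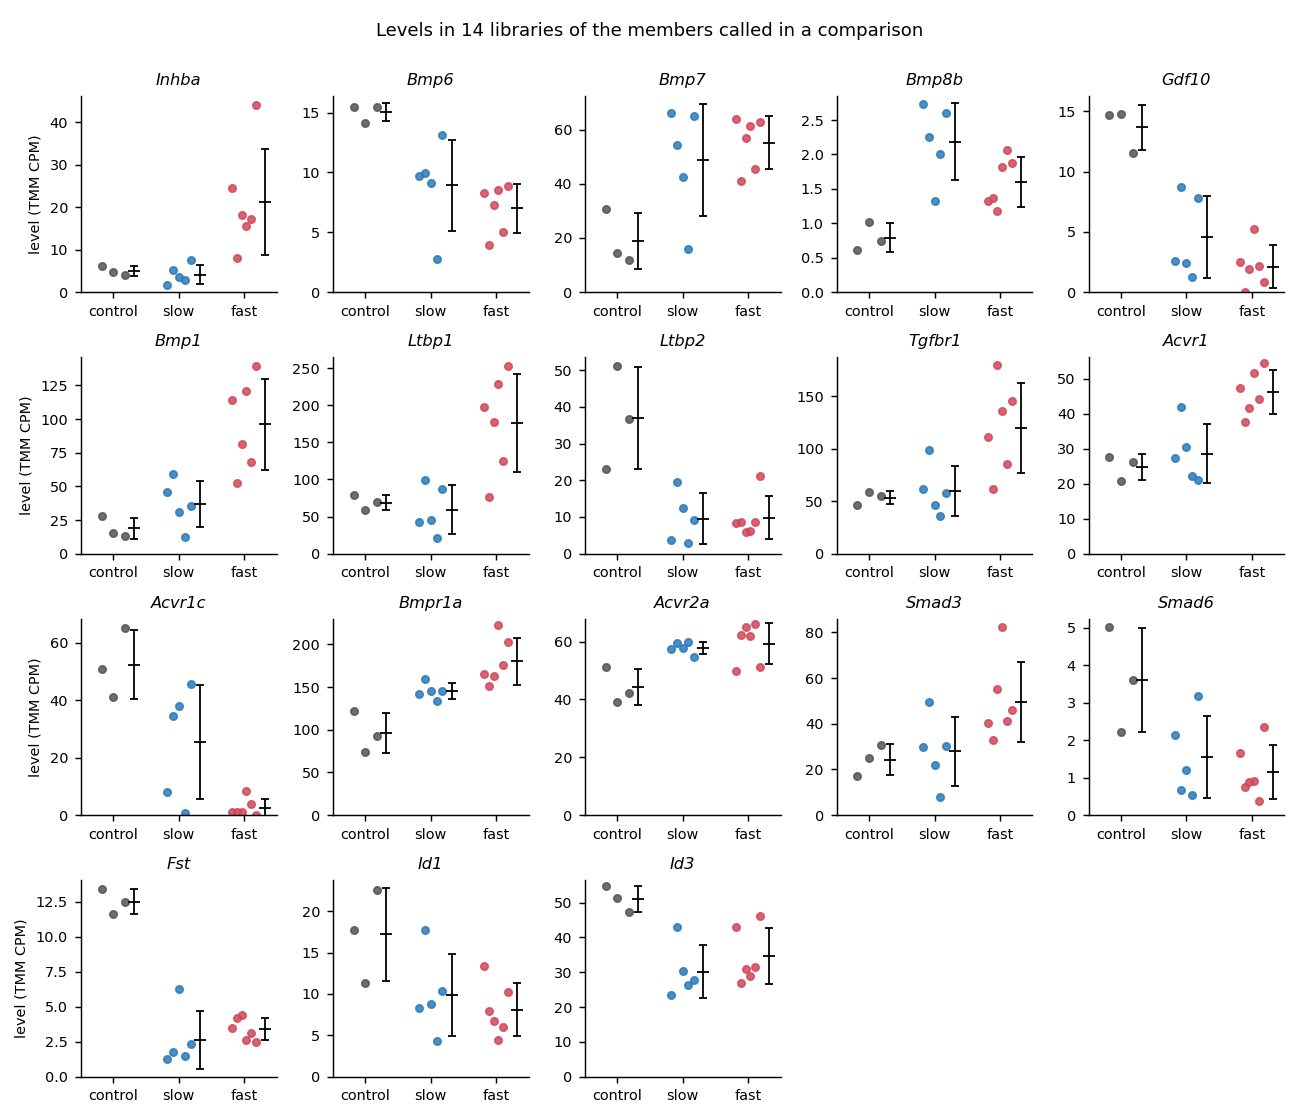
Level in each of 14 libraries (TMM-scaled CPM, linear axes from 0) of 18 of the 19 members called in at least 1 comparison; bars beside the points give mean ± SD (3 controls, 5 slow-growing and 6 fast-growing PNs) and are cut at 0. Fst and Gdf10 are lower in all 11 PNs than in any control, and Inhba is higher in all 6 fast-growing PNs than in any other library.

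Among the ligands, the activin subunit *Inhba* separated the growth groups. *Inhba* encodes the βA chain of activin A, a ligand of the SMAD2/SMAD3 branch. Its level was 7.96 to 44.2 with a median of 17.7 CPM in fast-growing PNs, 1.75, 5.11, 3.55, 2.74 and 7.52 CPM in the 5 slow-growing PNs, and 6.22, 4.81 and 4.02 CPM in the controls. Every fast-growing PN lay above every slow-growing PN and every control, although fast PN 2 was close to slow PN 5. *Inhba* was higher in fast- than in slow-growing PNs (log2 fold change 2.36, SE 0.47, adjusted p = 0.0449) and than in controls (log2 fold change 2.04, SE 0.50, adjusted p = 0.013), and slow-growing PNs were not called different from controls (log2 fold change -0.32, SE 0.46, adjusted p = 0.651). *Inhba* was not called between growth groups without slow PN 1, slow PN 3, slow PN 5, fast PN 1, fast PN 3, fast PN 4, fast PN 5 or fast PN 6, with DESeq2 size factors or without slow PN 4 and fast PN 4 together (adjusted p from 0.0503 to 0.129), so 8 of the 11 single libraries decide this call. Against controls it was not called without control 2 or control 3 (adjusted p from 0.0529 to 0.055), and with the skeletal muscle and fat covariates its fitted difference of fast-growing PNs from controls was in the opposite direction (-1.64, adjusted p = 0.824). The second subunit, *Inhbb*, was at 2.22 to 4.41 CPM in controls and 1.91 to 4.99 CPM in PNs and was called in no comparison.

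*Bmp7*, a ligand of the BMP branch needed for kidney and eye development, was the ligand with the highest level per length averaged over the 3 groups, although in controls *Tgfb3* and *Tgfb1* stood above it on that scale. Controls held 30.7, 14.4 and 11.7 CPM, the slow-growing PNs 66.2, 54.3, 42.7, 15.8 and 64.9 CPM, and the fast-growing PNs 41.2 to 63.7 with a median of 59.2 CPM. All PNs but slow PN 4 lay above every control. *Bmp7* rose in PNs (log2 fold change 1.46, SE 0.38, adjusted p = 0.0123) and in fast-growing PNs (log2 fold change 1.51, SE 0.31, adjusted p = 0.00505), and in slow-growing PNs the estimate was of similar size but missed the threshold (log2 fold change 1.33, SE 0.51, adjusted p = 0.121). In PNs *Bmp7* was not called without control 2 or control 3 (adjusted p from 0.075 to 0.087). In slow-growing PNs it was called higher without slow PN 4 and fast PN 4 together, by DESeq2's Wald test and in 1 edgeR fit over the 3 groups.

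*Bmp8b*, a low-level BMP, was at 0.605, 1.02 and 0.740 CPM in controls, 2.74, 2.25, 1.32, 2.01 and 2.60 CPM in slow-growing PNs, and 1.17 to 2.07 with a median of 1.59 CPM in fast-growing PNs. Each PN exceeded each control, and the gene rose in PNs (log2 fold change 1.24, SE 0.34, adjusted p = 0.0159). *Bmp8b* was not called without control 1 or control 3 (adjusted p from 0.0629 to 0.0788), and the genes on its opposite strand are *Gm17244* and *Ppie*.

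The related ligands *Bmp6* and *Gdf10* were lower. *Bmp6*, best known for the control of iron balance by the liver, was at 15.5, 14.1 and 15.4 CPM in controls, 9.73, 9.92, 9.14, 2.74 and 13.1 CPM in slow-growing PNs, and 3.95 to 8.87 with a median of 7.78 CPM in fast-growing PNs. Its level fell in fast-growing PNs (log2 fold change -1.15, SE 0.27, adjusted p = 0.0103), and in all PNs together it stood just inside the threshold (log2 fold change -0.93, SE 0.33, adjusted p = 0.0494). *Bmp6* in all PNs was not called without control 1, control 2, control 3, slow PN 2, slow PN 3, fast PN 1, fast PN 2, fast PN 3, fast PN 4, fast PN 5 or fast PN 6, with no expression filter or after removal of the length and GC trend (adjusted p from 0.0519 to 0.156). *Gdf10*, a BMP-3-like ligand, was at 14.7, 14.8 and 11.5 CPM in controls, 2.58, 8.72, 2.44, 1.28 and 7.81 CPM in slow-growing PNs, and 0 to 5.22 with a median of 2.02 CPM in fast-growing PNs. No PN reached a control, and the gene fell in PNs (log2 fold change -2.09, SE 0.73, adjusted p = 0.047) and in fast-growing PNs (log2 fold change -2.74, SE 0.80, adjusted p = 0.027). *Gdf10* in PNs was not called without control 1, control 2, control 3, slow PN 1, slow PN 3, slow PN 4, fast PN 1, fast PN 3, fast PN 5 or fast PN 6, with no expression filter or without slow PN 4 and fast PN 4 together (adjusted p from 0.053 to 0.138), and in fast-growing PNs it was not called without control 1, control 2, control 3, fast PN 1, fast PN 3, fast PN 5 or fast PN 6 (adjusted p from 0.0516 to 0.0775).

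The 3 TGF-β ligands were called in no comparison in edgeR's fit of each comparison. DESeq2's Wald test called *Tgfb1* lower in slow-growing PNs than in controls and higher in fast- than in slow-growing PNs. 1 edgeR fit over the 3 groups also called *Tgfb1* lower in slow-growing PNs than in controls. *Tgfb1*, the main isoform of immune and scar tissue, was at 4.67, 17.8 and 19.5 CPM in controls, 4.41, 7.06, 3.25, 1.73 and 6.65 CPM in slow-growing PNs, and 5.10 to 13.5 with a median of 11.8 CPM in fast-growing PNs. Control 1 was far below controls 2 and 3. Control 1 was also far below them in the sum of the 8 macrophage markers measured (185, 929.7, and 721 CPM in the 3 controls). *Ptprc* had the highest level of these markers in controls 2 and 3. *Cd163* went the other way and was highest in control 1, and the other markers of the list were lowest there. The part of macrophages in the *Tgfb1* level was not tested. Fast- minus slow-growing PNs gave a log2 fold change of 1.17 (SE 0.37, adjusted p = 0.11). *Tgfb2* ranged from 5.03 to 14.97 CPM and *Tgfb3* from 17.7 to 38.1 CPM in PNs, and both ranges enclosed the controls. Of the other BMP ligands, *Bmp2*, *Bmp3*, *Bmp4*, *Bmp5*, and *Bmp15* were tested and not called in edgeR's fit of PNs against controls. *Bmp5* came nearest (log2 fold change 1.11, SE 0.46, adjusted p = 0.0912). It was at 6.39, 4.44 and 4.86 CPM in controls, 10.3, 6.61, 9.65, 6.84 and 6.75 CPM in slow-growing PNs, and 3.40 to 22.4 with a median of 15.5 CPM in fast-growing PNs. *Gdf3*, *Gdf9*, and *Gdf11* were not called in that fit either, and *Bmp8a*, *Gdf2*, *Gdf5*, *Gdf6*, *Gdf7*, and *Gdf15* did not pass the filter in that comparison, with no library above 1.16 CPM. DESeq2's Wald test called *Gdf3* lower in PNs and in slow-growing PNs against controls. Without slow PN 4 and fast PN 4 together, *Gdf3* was called lower and *Bmp5* and *Gdf9* higher in PNs. In fast-growing PNs against controls, 1 edgeR fit over the 3 groups called *Bmp5* and *Gdf9* higher.

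Matrix-bound regulators of ligand activity diverged. *Bmp1* encodes a secreted metalloprotease that trims procollagen and releases latent TGF-β and, despite its name, is no BMP ligand. Controls held 28.00, 14.98 and 13.4 CPM, slow-growing PNs 45.6, 59.3, 31.1, 12.6 and 35.8 CPM, and fast-growing PNs 52.5 to 139.6 with a median of 97.9 CPM. Every fast-growing PN lay above every control, and slow PN 4 lay below all controls. *Bmp1* rose in fast-growing PNs (log2 fold change 2.32, SE 0.39, adjusted p = 0.00191) and in all PNs (log2 fold change 1.88, SE 0.61, adjusted p = 0.0345), and the difference between growth groups missed the threshold (log2 fold change 1.38, SE 0.37, adjusted p = 0.0722). In all PNs it was not called without control 2, control 3, fast PN 1 or fast PN 5 (adjusted p from 0.0525 to 0.156). The latent TGF-β binding proteins tether secreted TGF-β to the matrix. *Ltbp1* was at 78.9, 58.7 and 68.9 CPM in controls, 42.6, 99.7, 45.8, 20.5 and 87.6 CPM in slow-growing PNs, and 76.8 to 253 with a median of 187 CPM in fast-growing PNs. It rose in fast-growing PNs (log2 fold change 1.31, SE 0.36, adjusted p = 0.0211), where 5 of 6 libraries exceeded all controls, and was not called without control 2 or control 3 (adjusted p from 0.0615 to 0.0862). With the skeletal muscle and fat covariates the *Ltbp1* estimate had the opposite sign (-0.38, adjusted p = 0.973). Between growth groups, DESeq2's Wald test called *Bmp1* and *Ltbp1* higher in fast-growing PNs. *Ltbp2*, a family member that binds microfibrils and not TGF-β itself, went the other way. Controls held 23.2, 51.1 and 36.7 CPM, slow-growing PNs 3.65, 19.6, 12.5, 3.01 and 9.06 CPM, and fast-growing PNs 5.78 to 21.3 with a median of 8.55 CPM, with no overlap. *Ltbp2* fell in PNs (log2 fold change -1.93, SE 0.45, adjusted p = 0.00611) and in fast-growing PNs (log2 fold change -1.97, SE 0.42, adjusted p = 0.00618), and in PNs was not called without control 2 (adjusted p = 0.055). *Ltbp3* and *Ltbp4* were called in no comparison. In fast-growing PNs, where *Inhba*, *Bmp1*, and *Ltbp1* rose against controls, 8 of the 10 fibroblast markers were called higher too (beside 14.8% of all genes) and 1 lower (beside 16.7%). In slow-growing PNs against controls the fibroblast markers had a median log2 fold change of 0.38, and the mean levels there and in controls were 4.13 and 5.02 CPM for *Inhba*, 59.3 and 68.8 CPM for *Ltbp1*, and 36.9 and 18.8 CPM for *Bmp1*, none of them called. Without slow PN 4 and fast PN 4 together, *Bmp1* was called higher in slow-growing PNs. The part of fibroblast content in these results was not tested.

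**Figure D3:**
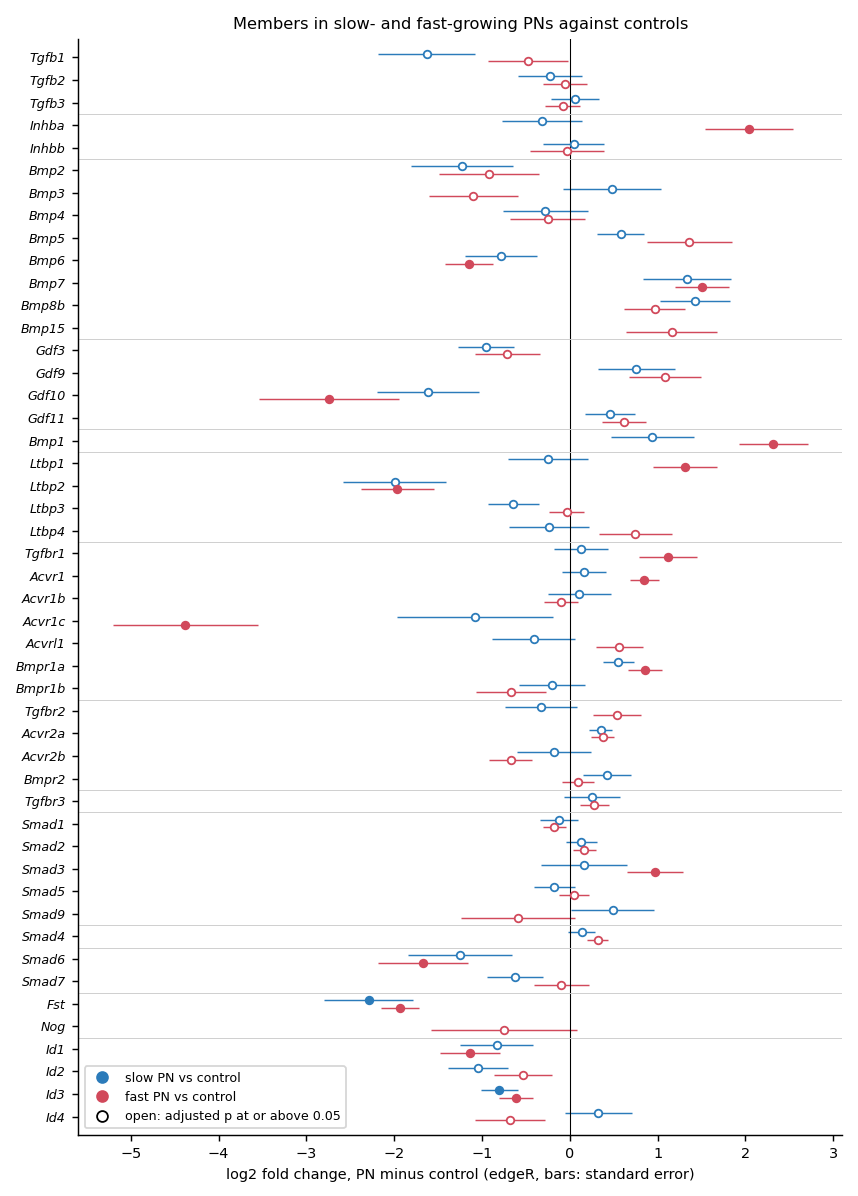
Log2 fold change (edgeR, bars give the standard error) of tested members in slow-growing (blue) and fast-growing (red) PNs against the same 3 controls, grouped by role; filled points have an adjusted p under 0.05. Fst and Id3 are filled in both comparisons, and Inhba, Ltbp1, Tgfbr1, Acvr1, and Smad3 are filled in fast-growing PNs with slow-growing estimates near 0.

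Of the 7 type I receptors, 3 rose (beside 14.8% of all genes) and 1 fell (beside 16.7%) in fast-growing PNs. *Bmpr1a*, the main type I receptor for BMPs, was at 122, 74.2 and 93.3 CPM in controls, 142, 159.6, 145, 133 and 145 CPM in slow-growing PNs, and 151 to 223 with a median of 171 CPM in fast-growing PNs. Each of the 11 PNs exceeded each control, and the receptor rose in PNs (log2 fold change 0.77, SE 0.18, adjusted p = 0.00668) and in fast-growing PNs (log2 fold change 0.86, SE 0.19, adjusted p = 0.00795), while slow-growing PNs missed the threshold (log2 fold change 0.55, SE 0.18, adjusted p = 0.084). In all PNs it was not called without control 2 or after removal of the length and GC trend (adjusted p from 0.0576 to 0.075). *Tgfbr1*, the TGF-β type I receptor (ALK5), was at 46.6, 59.1 and 54.98 CPM in controls, 61.8, 98.7, 46.3, 35.96 and 58.1 CPM in slow-growing PNs, and 61.4 to 180.3 with a median of 124 CPM in fast-growing PNs. All fast-growing PNs lay above the controls, and *Tgfbr1* rose there (log2 fold change 1.12, SE 0.33, adjusted p = 0.0282), but it was not called without control 1, control 2 or control 3 or after removal of the length and GC trend (adjusted p from 0.0665 to 0.0955), and with the skeletal muscle and fat covariates the estimate had the opposite sign (-0.96, adjusted p = 0.918). *Acvr1* (ALK2), a type I receptor of several BMPs, was at 27.7, 20.7 and 26.2 CPM in controls, 27.4, 42.01, 30.5, 22.1 and 21.1 CPM in slow-growing PNs, and 37.8 to 54.5 with a median of 45.8 CPM in fast-growing PNs. It rose in fast-growing PNs with no overlap (log2 fold change 0.85, SE 0.17, adjusted p = 0.00412). The difference of *Acvr1* between fast- and slow-growing PNs missed the threshold in edgeR's test (log2 fold change 0.69, SE 0.19, adjusted p = 0.0722). DESeq2's Wald test called *Acvr1* and *Tgfbr1* higher in fast- than in slow-growing PNs. It also called *Bmpr1a* higher in slow-growing PNs than in controls, as did 1 edgeR fit over the 3 groups.

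*Acvr1c* (ALK7), a type I receptor for activins and GDFs that adipocytes express strongly, had the log2 fold change of greatest size among the called members. It was at 50.98, 41.1 and 65.1 CPM in controls, 7.98, 34.6, 38.2, 0.730 and 45.5 CPM in slow-growing PNs, and 0.201 to 8.47 with a median of 1.10 CPM in fast-growing PNs. *Acvr1c* fell in fast-growing PNs, all below every control (log2 fold change -4.38, SE 0.82, adjusted p = 0.00345), and slow-growing PNs ranged from near the control level to under 1 CPM. Fat markers moved with it, and all 13 were called lower in fast-growing PNs. Their sums in slow PN 1 to 5 were 243, 1921, 1929, 22.5 and 3276 CPM, and *Lep*, *Elovl3*, or other fat markers had 0 counts in slow PN 1, slow PN 4, and fast PN 1, 3, 4, and 6. With the skeletal muscle and fat scores as covariates, the fitted *Acvr1c* difference of fast-growing PNs from controls was in the opposite direction (1.91, edgeR adjusted p = 0.911). That fit called 0 of all 16037 genes tested in this comparison. The part of fat in the *Acvr1c* level was not tested. *Acvr1b*, *Acvrl1*, and *Bmpr1b* were called in no comparison.

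**Figure D4:**
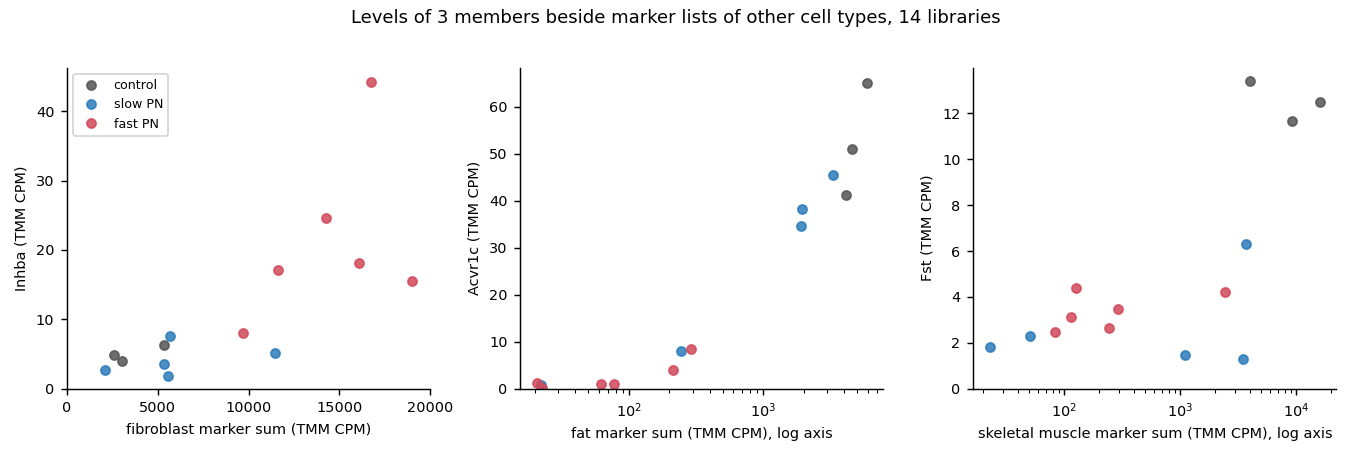
Levels of Inhba, Acvr1c, and Fst (TMM-scaled CPM) beside the summed level of fibroblast, fat, and skeletal muscle markers in the same 14 libraries; the fat and muscle axes are logarithmic. Libraries with high Acvr1c have high fat sums, fast-growing PNs have both the highest Inhba and most of the highest fibroblast sums, and all 11 PNs have both lower Fst and lower muscle sums than any control.

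In edgeR's separate fits of the 4 comparisons, *Acvr2a* was the only type II receptor called, and only in all PNs against controls. *Acvr2a*, the activin type IIA receptor, was at 51.2, 39.1 and 42.3 CPM in controls, 57.5, 59.7, 57.9, 59.9 and 54.7 CPM in slow-growing PNs, and 49.7 to 65.99 with a median of 62.1 CPM in fast-growing PNs. *Acvr2a* rose slightly in PNs (log2 fold change 0.41, SE 0.12, adjusted p = 0.0196), the comparison of its call, with 9 of 11 PNs above all controls. It was not called there without control 2 or control 3 or after removal of the length and GC trend (adjusted p from 0.108 to 0.58). Exons of *Orc4* overlap *Acvr2a* on the opposite strand. *Bmpr2*, the member with the highest level per length, was at 720.0, 450.1 and 434 CPM in controls, 687, 557, 779, 1024 and 635 CPM in slow-growing PNs, and 514 to 690.1 with a median of 561 CPM in fast-growing PNs, and was called in no comparison. *Tgfbr2*, *Acvr2b*, and the co-receptor *Tgfbr3* were not called by edgeR either, with PN log2 fold changes of 0.25, -0.39, and 0.31. DESeq2's Wald test called *Acvr2b* lower in fast-growing PNs against controls.

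In edgeR's fit of each comparison, *Smad3* was the only one of the 8 SMADs called higher and *Smad6* the only one called lower. Both calls were in fast-growing PNs against controls (beside 14.8% of all genes called higher and 16.7% called lower). DESeq2's Wald test and 1 edgeR fit over the 3 groups also called *Smad4* higher there. *Smad3*, which carries TGF-β and activin signals, was at 17.3, 24.9 and 30.9 CPM in controls, 29.9, 49.7, 21.9, 8.12 and 30.1 CPM in slow-growing PNs, and 32.9 to 82.2 with a median of 43.5 CPM in fast-growing PNs. The 6 fast-growing PNs all lay above the highest control, the lowest of them narrowly, and *Smad3* rose there (log2 fold change 0.97, SE 0.32, adjusted p = 0.0447), and it was not called without control 1, control 2, fast PN 1, fast PN 3 or fast PN 5, with no expression filter, in 1 fit over the 3 groups or after removal of the length and GC trend (adjusted p from 0.051 to 0.131). *Smad6*, an inhibitor that acts mainly on the BMP branch and is itself induced by BMPs, was at 5.01, 2.22 and 3.59 CPM in controls, 2.13, 0.676, 1.22, 0.548 and 3.18 CPM in slow-growing PNs, and 0.370 to 2.35 with a median of 0.893 CPM in fast-growing PNs. It fell in fast-growing PNs (log2 fold change -1.67, SE 0.52, adjusted p = 0.0342), and in all PNs it lay just outside the threshold (log2 fold change -1.43, SE 0.51, adjusted p = 0.0502). With DESeq2 size factors and by DESeq2's Wald test *Smad6* was called lower in all PNs. In fast-growing PNs *Smad6* was not called without control 1, control 3, fast PN 2, fast PN 3 or fast PN 4 (adjusted p from 0.0527 to 0.115). The other inhibitor, *Smad7*, was at 4.93, 9.89 and 8.88 CPM in controls, 3.57, 6.16, 5.59, 4.38 and 6.65 CPM in slow-growing PNs, and 4.66 to 9.81 with a median of 8.04 CPM in fast-growing PNs, and was not called. *Smad5* was not called, and *Smad1*, *Smad2*, and *Smad4*, also not called in edgeR's fit of each comparison, had PN log2 fold changes of -0.10, 0.20, and 0.28. *Smad9* was not called either, and was at 56.2 CPM in slow PN 4 and at 1.97 CPM in fast PN 4, the libraries with the highest and the lowest sensory neuron sums.

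The secreted antagonist *Fst* was the one member of the 10 called in PNs whose call held without each single library. Follistatin binds activins almost irreversibly and also blocks some BMPs and myostatin. Controls held 13.4, 11.6 and 12.5 CPM, slow-growing PNs 1.29, 1.80, 6.30, 1.46 and 2.31 CPM, and fast-growing PNs 2.48 to 4.39 with a median of 3.30 CPM. The highest PN was at 6.30 CPM and the lowest control at 11.6 CPM. *Fst* fell in all PNs (log2 fold change -2.04, SE 0.35, adjusted p = 0.000809), in fast-growing PNs (log2 fold change -1.93, SE 0.21, adjusted p = 0.000197), and in slow-growing PNs (log2 fold change -2.29, SE 0.50, adjusted p = 0.0246), and was not called between growth groups (log2 fold change 0.37, SE 0.40, adjusted p = 0.621). In PNs and in fast-growing PNs the call held without each single library, and in slow-growing PNs *Fst* was not called without control 2, control 3, slow PN 1 or slow PN 5 (adjusted p from 0.0528 to 0.0884). With the skeletal muscle and fat covariates the estimate in PNs was smaller and was not called (-1.61, adjusted p = 0.213). *Grem1*, a BMP antagonist, did not pass the filter and was at 0.173, 3.98 and 4.12 CPM in controls and at most 0.183 CPM in any PN, so controls 2 and 3 stood apart from control 1 and from all PNs. *Nog* was at or below 1.20 CPM throughout and was not called.

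Among the ID proteins, which inhibit basic helix-loop-helix transcription factors, *Id3* and *Id1* were lower. *Id3* was at 54.7, 51.2 and 47.3 CPM in controls, 23.5, 42.9, 30.3, 26.2 and 27.8 CPM in slow-growing PNs, and 26.8 to 46.3 with a median of 31.2 CPM in fast-growing PNs. Every PN lay below every control, and *Id3* fell in all PNs (log2 fold change -0.65, SE 0.19, adjusted p = 0.0212), slow-growing PNs (log2 fold change -0.80, SE 0.21, adjusted p = 0.0414), and fast-growing PNs (log2 fold change -0.61, SE 0.19, adjusted p = 0.0371). In all PNs *Id3* was not called without control 1, control 2 or control 3 or after removal of the length and GC trend (adjusted p from 0.0607 to 0.618). In slow-growing PNs it was not called without control 1, control 2, control 3, slow PN 1, slow PN 3, slow PN 4 or slow PN 5, with DESeq2 size factors, with no expression filter or after removal of the length and GC trend (adjusted p from 0.0517 to 0.387), and in fast-growing PNs it was not called without control 1, control 2, control 3, fast PN 2, fast PN 3, fast PN 4 or fast PN 5, with no expression filter, in 1 fit over the 3 groups or after removal of the length and GC trend (adjusted p from 0.0511 to 0.728). *Id1* was at 17.7, 11.4 and 22.5 CPM in controls, 8.28, 17.7, 8.84, 4.29 and 10.3 CPM in slow-growing PNs, and 4.46 to 13.3 with a median of 7.31 CPM in fast-growing PNs. It fell in fast-growing PNs (log2 fold change -1.14, SE 0.34, adjusted p = 0.0306) and was not called without control 1, control 3, fast PN 2, fast PN 3 or fast PN 5, in 1 fit over the 3 groups or after removal of the length and GC trend (adjusted p from 0.0509 to 0.194). *Id2* and *Id4* were not called in edgeR's fit of each comparison, and *Id2* in control 1 (10.1 CPM) lay far below control 2 (32.9 CPM). DESeq2's Wald test called *Id2* lower in slow-growing PNs against controls. 1 edgeR fit over the 3 groups called *Id2* lower in all PNs and in slow-growing PNs. Of markers of vessel cells, which respond to BMPs, 3 of 9 endothelial (*Egfl7*, *Esam*, *Kdr*) and 4 of 9 mural markers (*Abcc9*, *Kcnj8*, *Notch3*, *Tagln*) were called lower in PNs, beside 13.4% of all genes. The 9 endothelial markers summed to 409 to 551 CPM in controls and 115 to 525 CPM in PNs, and the 9 mural markers to 899 to 1051 and 251 to 1215 CPM. The part of vessel cells in the *Id* and *Smad6* levels was not tested.

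The promoters of 5 of these members are shown for the SMAD motif letters they hold, from 250 bases before to 30 bases after the annotated start (RefSeq, GRCm38.p6, 5′ to 3′ on the gene's strand). Capitals mark 3 motifs on both strands: the palindrome GTCTAGAC of SMAD3 and SMAD4, the GC-rich GGCGCC bound by BMP SMADs, and the short SMAD box CAGAC, which reads GTCTG on the other strand. No motif overlaps another.
Smad6, chr9:64022030-64022309, minus strand: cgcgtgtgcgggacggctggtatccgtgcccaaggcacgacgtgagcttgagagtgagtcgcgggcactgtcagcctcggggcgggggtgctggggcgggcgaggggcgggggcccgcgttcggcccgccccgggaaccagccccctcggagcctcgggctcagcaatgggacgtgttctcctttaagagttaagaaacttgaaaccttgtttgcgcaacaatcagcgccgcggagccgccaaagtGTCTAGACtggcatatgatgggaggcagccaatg
Id3, chr4:136143572-136143851, plus strand: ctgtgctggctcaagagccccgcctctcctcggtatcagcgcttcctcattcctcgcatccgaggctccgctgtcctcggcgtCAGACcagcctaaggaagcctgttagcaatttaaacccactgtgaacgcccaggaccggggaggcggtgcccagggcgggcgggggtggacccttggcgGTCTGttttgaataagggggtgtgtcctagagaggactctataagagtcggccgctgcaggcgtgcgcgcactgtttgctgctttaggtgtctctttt
Tgfbr1, chr4:47352972-47353251, plus strand: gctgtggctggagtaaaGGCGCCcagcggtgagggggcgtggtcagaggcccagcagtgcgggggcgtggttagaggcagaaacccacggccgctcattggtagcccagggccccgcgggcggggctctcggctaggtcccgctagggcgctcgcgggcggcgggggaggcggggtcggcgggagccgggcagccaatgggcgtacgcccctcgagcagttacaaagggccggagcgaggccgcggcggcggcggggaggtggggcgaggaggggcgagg
Bmpr1a, chr14:34502517-34502796, minus strand: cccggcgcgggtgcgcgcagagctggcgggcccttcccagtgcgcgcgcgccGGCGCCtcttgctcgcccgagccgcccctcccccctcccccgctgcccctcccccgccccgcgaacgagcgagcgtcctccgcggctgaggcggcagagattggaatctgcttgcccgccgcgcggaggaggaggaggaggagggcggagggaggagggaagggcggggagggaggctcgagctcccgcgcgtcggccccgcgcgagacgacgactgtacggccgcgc
Inhba, chr13:16011601-16011880, plus strand: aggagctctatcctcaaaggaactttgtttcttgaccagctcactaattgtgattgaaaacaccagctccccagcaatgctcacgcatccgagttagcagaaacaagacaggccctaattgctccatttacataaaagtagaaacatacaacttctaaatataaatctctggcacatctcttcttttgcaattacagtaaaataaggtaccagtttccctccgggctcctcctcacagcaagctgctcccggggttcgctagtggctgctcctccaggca
*Smad6* and *Id3* are shown as members that were lower in fast-growing PNs, *Tgfbr1* and *Bmpr1a* as receptors that were higher there, and *Inhba* as the member that edgeR's test called between growth groups. *Smad6* holds the palindrome across its start, the only one among the 40 members with a promoter in the table, beside 0.192% of 32851 promoters. *Id3* holds the SMAD box at 2 places, a motif found in 46.8% of promoters and in 19 of the 40 members. *Tgfbr1* and *Bmpr1a* each hold GGCGCC, found in 10.9% of promoters and in 12 of the 40 members. The 40 members have 51 promoters, and a member counts where any of them holds the motif, so its share is not on the scale of single promoters. Another *Tgfbr1* promoter in the table, not shown, holds the SMAD box and not GGCGCC. *Inhba* has none of the 3 motifs in this window. A match is a string of letters, not a bound site.

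Other genes of the pathway were read from lists outside the rule. In all PNs against controls, 3 of 10 tested receptors and co-receptors rose (beside 12.9% of all genes) and 2 fell (beside 13.4%), with a list median log2 fold change of -0.23, beside 0.10 for all genes. The rises were of *Rgmb*, *Itgb8*, and *Itgav*. *Rgmb*, a BMP co-receptor, rose from 34.6, 23.3 and 20.8 CPM in controls to 50.6 to 120.3 CPM in PNs (log2 fold change 1.77, SE 0.30, adjusted p = 0.000711), and with the skeletal muscle and fat covariates was not called (0.93, adjusted p = 0.201). *Itgb8*, an integrin chain that activates latent TGF-β, was at 88.7, 38.6 and 38.5 CPM in controls, 178, 271, 83.5, 81.04 and 183 CPM in slow-growing PNs, and 224 to 480.3 with a median of 326 CPM in fast-growing PNs (log2 fold change 2.19, SE 0.53, adjusted p = 0.00819). *Itgb6*, a chain with the same role in epithelia, fell (log2 fold change -2.39, SE 0.55, adjusted p = 0.00567). *Amhr2*, the receptor of anti-Müllerian hormone, fell at low levels (log2 fold change -1.62, SE 0.43, adjusted p = 0.0129). *Itgb8* was not called without control 2 or control 3 (adjusted p from 0.0534 to 0.059), *Amhr2* without control 2 or control 3 (adjusted p from 0.0591 to 0.0694), and *Itgb6* without control 3 (adjusted p = 0.0857). Of 17 tested extracellular regulators, 3 were called, all higher (beside 12.9% of all genes called higher). These were *Fstl3*, a follistatin-like activin antagonist (log2 fold change 1.72, SE 0.55, adjusted p = 0.0336), the TGF-β co-receptor *Cd109* (log2 fold change 1.92, SE 0.65, adjusted p = 0.0416), and the microfibril protein *Fbn2* (log2 fold change 3.21, SE 1.13, adjusted p = 0.0494). *Fstl3* was at 2.94, 1.29 and 1.48 CPM in controls and 1.73 to 12.8 CPM in PNs. *Fstl3* was not called without control 2, control 3, fast PN 1, fast PN 2 or fast PN 5 (adjusted p from 0.0524 to 0.148), *Cd109* without control 1, control 2, control 3, slow PN 2, fast PN 1, fast PN 2, fast PN 3, fast PN 4, fast PN 5 or fast PN 6 or after removal of the length and GC trend (adjusted p from 0.0517 to 0.177), and *Fbn2* without control 1, control 2, control 3, slow PN 2, fast PN 1, fast PN 2, fast PN 3, fast PN 4, fast PN 5 or fast PN 6, with DESeq2 size factors, with no expression filter or after removal of the length and GC trend (adjusted p from 0.0521 to 0.18). Of the 3 ligands tested outside the rule, myostatin (*Mstn*), a muscle product, fell (log2 fold change -3.33, SE 0.98, adjusted p = 0.022) beside the skeletal muscle markers, of which 9 of 15 were called lower, and was not called without control 2 or control 3 (adjusted p from 0.0671 to 0.128). The part of muscle in the *Mstn* level was not tested.

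Response genes were mixed in direction against controls. Of 13 TGF-β response genes, 1 rose (beside 12.9% of all genes) and 3 fell (beside 13.4%) in PNs, with a list median log2 fold change of 0.84, beside 0.10 for all genes. *Cyr61* fell (log2 fold change -1.84, SE 0.37, adjusted p = 0.00246) and *Snai2* rose (log2 fold change 1.10, SE 0.31, adjusted p = 0.017), and *Snai2* was not called without control 1 (adjusted p = 0.0756). With the skeletal muscle and fat covariates neither was called (adjusted p from 0.396 to 0.533). In fast-growing PNs 7 of the 13 rose (beside 14.8% of all genes) and 3 fell (beside 16.7%). Among these, *Col1a1*, which was higher, also stands in the fibroblast list and *Tagln*, which was lower, in the mural list, and 8 of 10 fibroblast markers were called higher and 1 lower, and 6 of 9 mural markers lower and 1 higher there. The part of these cells in the response genes was not tested. Between growth groups, 2 of the 13 were called, both higher in fast-growing PNs (beside 0.802% of all genes). *Pmepa1*, a feedback inhibitor of TGF-β signaling, was at 48.2, 127, 67.6, 44.4 and 83.7 CPM in slow-growing PNs and 133 to 252 with a median of 201 CPM in fast-growing PNs, with no overlap (log2 fold change 1.38, SE 0.28, adjusted p = 0.0472). *Skil*, which encodes the SMAD repressor SnoN, was at 39.7, 67.6, 40.8, 35.5 and 46.3 CPM in slow-growing and 65.5 to 140.5 with a median of 124 CPM in fast-growing PNs, and fast PN 2 lay within the slow-growing range (log2 fold change 1.27, SE 0.24, adjusted p = 0.0449). *Fbn2* separated the growth groups too, at 6.76, 24.9, 5.18, 5.11 and 10.7 CPM in slow-growing PNs and 40.7 to 132 with a median of 85.7 CPM in fast-growing PNs (log2 fold change 3.06, SE 0.49, adjusted p = 0.0317). Between growth groups *Pmepa1* was not called without slow PN 1, slow PN 3, slow PN 5, fast PN 1, fast PN 3, fast PN 4, fast PN 5 or fast PN 6, with DESeq2 size factors, with no expression filter or without slow PN 4 and fast PN 4 together (adjusted p from 0.0503 to 0.129), *Skil* without slow PN 1, slow PN 3, slow PN 5, fast PN 1, fast PN 3, fast PN 4 or fast PN 6 or without slow PN 4 and fast PN 4 together (adjusted p from 0.058 to 0.129), and *Fbn2* without slow PN 1, slow PN 3, slow PN 5, fast PN 1, fast PN 3, fast PN 4 or fast PN 6 (adjusted p from 0.0645 to 0.12). Of 12 intracellular regulators in PNs against controls, 1 rose (beside 12.9% of all genes) and 1 fell (beside 13.4%). *Trim33* rose (log2 fold change 0.41, SE 0.13, adjusted p = 0.0288) and *Tob1*, an antiproliferative protein that binds SMADs, fell (log2 fold change -1.14, SE 0.31, adjusted p = 0.0158). *Trim33* was not called without control 2, control 3 or fast PN 5, with DESeq2 size factors, after removal of the length and GC trend or without slow PN 4 and fast PN 4 together (adjusted p from 0.0502 to 0.73), and *Tob1* without control 3 (adjusted p = 0.137). Of 6 BMP response genes tested, with the same shares over all genes, *Tob1*, which stands in both lists, fell and *Msx2* was called higher, at 0.0864, 0 and 0.106 CPM in controls and 0.340 to 1.83 CPM in PNs. The controls of *Msx2* lie under the level of 3 counts, so no fold is given.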

How the data were processed

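Total RNA of 3 control and 11 PN libraries had been amplified by the authors (Ovation RNA-Seq System v2). The deposited values used here are whole-number read counts per gene, which the authors made by aligning reads to mm10 with TopHat2 2.0.9 and counting with featureCounts 1.5.2, without normalization. Read strand in the counting is not given in the sources used here. A deposited table of normalized log2 values for the same libraries was not used here.

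From the counts, low genes were removed with filterByExpr, TMM factors scaled the library sizes, and the quasi-likelihood test of edgeR 4.0.16 (R 4.3.3) compared groups, with only the libraries of a comparison in the fit and no covariate. A gene was called at a Benjamini-Hochberg adjusted p under 0.05 over all genes tested. The SE is the log2 fold change divided by the square root of F. Levels are TMM-scaled CPM, and per-length levels use the longest GENCODE M21 transcript (22750 genes matched by symbol, 934 by an older symbol, 378 not matched). The members and all gene lists were chosen with earlier results of these data known. 1 member is not reported here by name and is left out of the figures, although the counts of members hold it. Every other member could be named, and of other list genes values are given for at most 4 called genes per list. Alternatives were DESeq2 1.42.0 size factors and Wald test, no filter, 1 fit over the 3 groups, and leaving out each library. Skeletal muscle and fat scores (mean log2 of CPM + 1) were also used as covariates. A length and GC trend was also removed, by a spline fit given to edgeR as an offset. Leaving out slow PN 4 and fast PN 4 together was added after the data were seen. The main edgeR fit of each comparison was tested on simulated data, and the alternatives were not. Depth was 9596773 to 17594164 counts per library. The limit of 3 counts covers counting error only, since amplified reads are no independent molecules. Control and PN libraries share no preparation label, so preparation and tissue cannot be told apart. Figures were drawn with matplotlib 3.10.9.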

Additional observations from a re-analysis of the deposited data

Results flagged for a closer look

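*Fst* in slow PN 3 was at 6.30 CPM, far from the next slow-growing PN at 2.31 CPM, and still below every control. *Ltbp2* in fast PN 6 was at 21.3 CPM against 8.73 CPM in the next fast-growing PN. Libraries this distant from their group were found in 2 of 38 groups examined (19 members in slow- and fast-growing PNs), and chance gives about 1 in 20. *Inhba* differed between fast- and slow-growing PNs, with a log2 fold change of 2.36 in edgeR's quasi-likelihood test (adjusted p = 0.0449, higher in 6 of 6 fast-growing PNs than in any slow-growing PN).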

How the results depend on the processing

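Of the 29 calls of members against controls, 17 held without control 1, 12 without control 2, and 12 without control 3. Leaving out 1 library gave 2 to 11 called members for PNs (2 without control 2, 3 without control 3), 0 to 5 for slow-growing PNs (0 without control 2, control 3, slow PN 1, or slow PN 5), 9 to 17 for fast-growing PNs (10 without control 2, 9 without control 3), and 0 to 5 between growth groups. The share of all genes called in these fits is not given here, so these counts do not show whether members lost calls more often than other genes. With the skeletal muscle and fat covariates 0 members were called by edgeR in each of the 4 comparisons, 11, 4, 5, and 10 members had an unadjusted p under 0.05, and 480, 0, 0, and 0 of all genes were called. In that fit the estimates of fast-growing PNs against controls changed sign for *Inhba* (-1.64), *Ltbp1* (-0.38), *Tgfbr1* (-0.96), and *Acvr1c* (1.91), and those of all PNs for *Cd109* (-0.42), *Fbn2* (-1.18), and *Mstn* (1.03), and the cause was not tested. For slow-growing PNs, DESeq2 size factors gave 1 member (2.13%, beside 11% of all genes), DESeq2's Wald test 10 (21.3%, beside 22.5%), and 1 fit over the 3 groups 8 (16.3%, beside 20.1%). Between growth groups, they gave 0 (beside 0.841%; 15 with an unadjusted p under 0.05, 31.2% beside 20.4%), 9 (18.8%, beside 10.3%), and 2 (4.08%, beside 2.6%), and leaving out slow PN 4 and fast PN 4 together gave 2 (4.17%, beside 3.27%), both lower. Of the 30 calls of members, DESeq2 size factors kept 28, the Wald test 30, no filter 24, 1 fit 27, and removal of the length and GC trend 21. Under the other settings tried no call changed sign. The scalings moved the median over all genes by less than 0.1 on the log2 scale. No paired analysis was possible because the replicate numbers are given in accession order and pair no libraries.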
